A study of Mus musculus with 6 samples.

Results

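Glutamate is the main excitatory transmitter of the spinal cord. Vesicular transporters load it into synaptic vesicles, ionotropic receptors (AMPA, NMDA and kainate types) open cation channels when they bind it, and metabotropic receptors act through G proteins. On the receiving side a protein lattice, the postsynaptic density, holds the receptors through scaffold proteins of the Dlg, Shank and Homer families. In the dorsal horn these synapses carry touch, pain and itch input from the skin, and in the ventral horn they drive motor neurons.

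The set described here holds 34 glutamate genes out of 54532 genes in the deposited tables. It consists of 4 AMPA, 7 NMDA and 5 kainate receptor subunits, 1 delta receptor subunit, 6 metabotropic receptors, 4 neuronal glutamate transporters and 7 scaffold or anchoring proteins, and was chosen by gene name. Every symbol matched exactly 1 Ensembl gene.

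The libraries came from 6 C57BL/6 mice, 1 per mouse, and hold RNA of the cervical spinal cord. The imiquimod group (3 mice) had 50 mg of a 5% cream of imiquimod, an agonist of the RNA sensor TLR7, put on the shaved nape daily for 2 days, which gives a psoriasis-like dermatitis. The vehicle group (3 mice) got the same amount of control cream. The labels name no allele, transgene or second agent, and neither sex nor age of the mice is stated in them. The whole cervical cord was used, so dorsal and ventral horn and white matter are mixed in every value. Values are FPKM, which count fragments per exon length and library size. The libraries held 18174411 to 23200996 recovered fragments, and every imiquimod library was deeper than every vehicle library.

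The tissue label was checked against markers of its cell types. None of the 14 neuron, 10 astrocyte and 8 oligodendrocyte markers stayed under 1 FPKM, while all 5 skeletal muscle markers and 4 of 6 sensory ganglion markers stayed under 1 FPKM in every library. Imiquimod replicate 2 stood apart in Schwann cell markers, which mark nerve roots. The 4 of them summed to 1.76 FPKM there, against 79.95 and 154.6 FPKM in the other imiquimod libraries and 136 to 221 FPKM in the vehicle libraries.

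Promoters of 2 of the genes on which the comparison turns, Grin2c and Gria4, are shown first. RefSeq promoter windows (GRCm38.p6) matched 23 of the 34 genes, with 31 windows. Those without a window were Gria1, Gria3, Grin2a, Grin2b, Grin3a, Grik1, Grid1, Grm4, Grm5, Shank1 and Shank2. For Grin2c and Gria4 the 250 bases before the RefSeq start are given, 5′ to 3′ on the gene's strand, with each GGGCGG (the GC box, searched on both strands) in capitals. In both genes that start is also the GENCODE M21 gene start, so no transcribed base is shown.
Grin2c, chr11:115267244-115267493, minus strand: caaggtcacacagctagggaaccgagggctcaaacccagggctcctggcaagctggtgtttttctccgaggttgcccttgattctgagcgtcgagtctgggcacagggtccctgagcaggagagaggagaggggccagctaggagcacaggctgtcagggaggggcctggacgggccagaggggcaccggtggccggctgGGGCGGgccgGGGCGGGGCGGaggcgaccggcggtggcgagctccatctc
Gria4, chr9:4796235-4796484, minus strand: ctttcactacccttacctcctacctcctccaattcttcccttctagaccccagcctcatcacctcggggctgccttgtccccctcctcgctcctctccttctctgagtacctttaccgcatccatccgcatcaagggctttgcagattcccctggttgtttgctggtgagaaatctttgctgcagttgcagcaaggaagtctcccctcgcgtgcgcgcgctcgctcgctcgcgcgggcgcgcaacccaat
The Grin2c window held 3 GC boxes, of which 2 overlap, and 68.8% G or C. The Gria4 window held none and had 58.8% G or C. Homer2 had 2 windows as well, which lie inside its GENCODE M21 gene and are not printed. Of these, 1 held 8 GC boxes and 83.2% G or C, and the other held none and 52% G or C. A GC box stood in 16 of the 31 windows of the set (51.6%) and in 32.7% of all 32851 windows of this length. The median window of the set had 62% G or C and 11 CpG pairs, against 52.4% and 6 over all windows. TTCNNNGAA, a STAT-type motif, was in none of the 31 windows and in 7.02% of all. TATAAA was in 2 windows and TGACGTCA, the cyclic AMP response element, in none, against 12.4% and 1.55% of all. These motifs were searched on both strands. A match is a description of letters, not a bound site.

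Imiquimod and vehicle cords were compared gene by gene with limma on log2(FPKM + 0.1) over the 16513 genes with a mean of at least 0.5 FPKM in either group. Of the 34 glutamate genes 32 were tested, and all 32 reached that minimum in vehicle cords alone. With a threshold of 0.05 on the Benjamini-Hochberg adjusted p, 4 of the 32 fell in imiquimod cords: Grin2c, Homer2, Gria4 and Gria1. None rose. Of all genes tested 5.34% fell and 8.74% rose, so 12.5% of the set against 5.34% is the comparison for the lower calls. The log2 change was below 0 in 27 of the 32, against 50.9% of all genes, and its median was -0.23 against -0.01. Without imiquimod replicate 1 the median of the set was -0.10, with 26 of the 32 below 0. In 12 of the 32 every vehicle library lay above every imiquimod library, against 18.0% of all genes, and in none was it the other way, against 19.8%. The number of lower calls was 1 without any 1 vehicle library, 2 without imiquimod replicate 1 or 3, and 9 without imiquimod replicate 2. Lower calls over all genes (16486 to 16632 tested) were 187 to 252 without a vehicle library. They were 629, 1296 and 426 without imiquimod replicates 1, 2 and 3. Less RNA per cell and fewer cells of a type cannot be told apart in such bulk samples. Median log2 changes near that of the set were also found for the 14 neuron markers (-0.22, 2 called lower), the 8 oligodendrocyte markers (-0.23, 1 lower) and the 10 astrocyte markers (-0.24, 2 lower and 1 higher). The part of these cell types in the result was not tested.

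**Figure D1:**
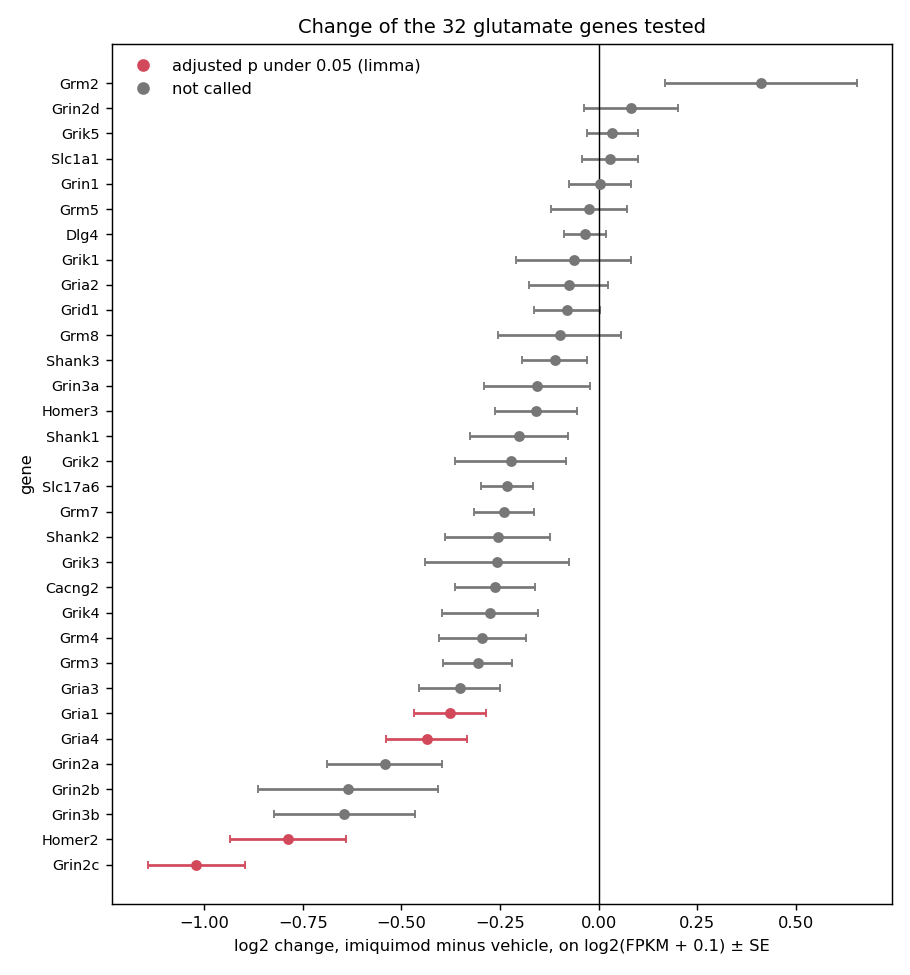
Log2 change (imiquimod minus vehicle, on log2(FPKM + 0.1), ± SE) of the 32 glutamate genes tested, 3 libraries per group, with the 4 genes at a limma adjusted p under 0.05 in red. Grin2c and Homer2 lie farthest to the left, 27 genes lie below 0, and no gene above 0 was called.

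By level, FPKM being a measure per exon length, the set ran from near 0 (Slc17a7) to 40.6 FPKM (Slc17a6). Highest over all libraries was Slc17a6, which encodes the vesicular transporter VGLUT2 of spinal excitatory neurons, with a mean of 36.3 FPKM. Cacng2 (24.7), Gria4 (23.5), Dlg4 (20.4), Grin1 (19.2) and Gria1 (18.3 FPKM) came next. Slc17a6 lay above the other genes in every library, and from Cacng2 on the ranges of neighbours in this order overlap. The median of the 32 genes tested had a mean of 6.96 FPKM, against 4.67 FPKM over the 16503 tested genes with a known length. These genes are long: the median exon length was 7.49 kb against 3.82 kb, and the median span in the genome 156 kb against 18.9 kb. Fragments of a gene and of an overlapping gene on the other strand cannot be told apart here, because the strand setting is not given. Exons of 19 of the 34 genes overlap those of another annotated gene. For Grin2c, Gria1, Gria4 and Homer2 the overlapping gene, where there is one, was at or below 1.11 FPKM.

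**Figure D2:**
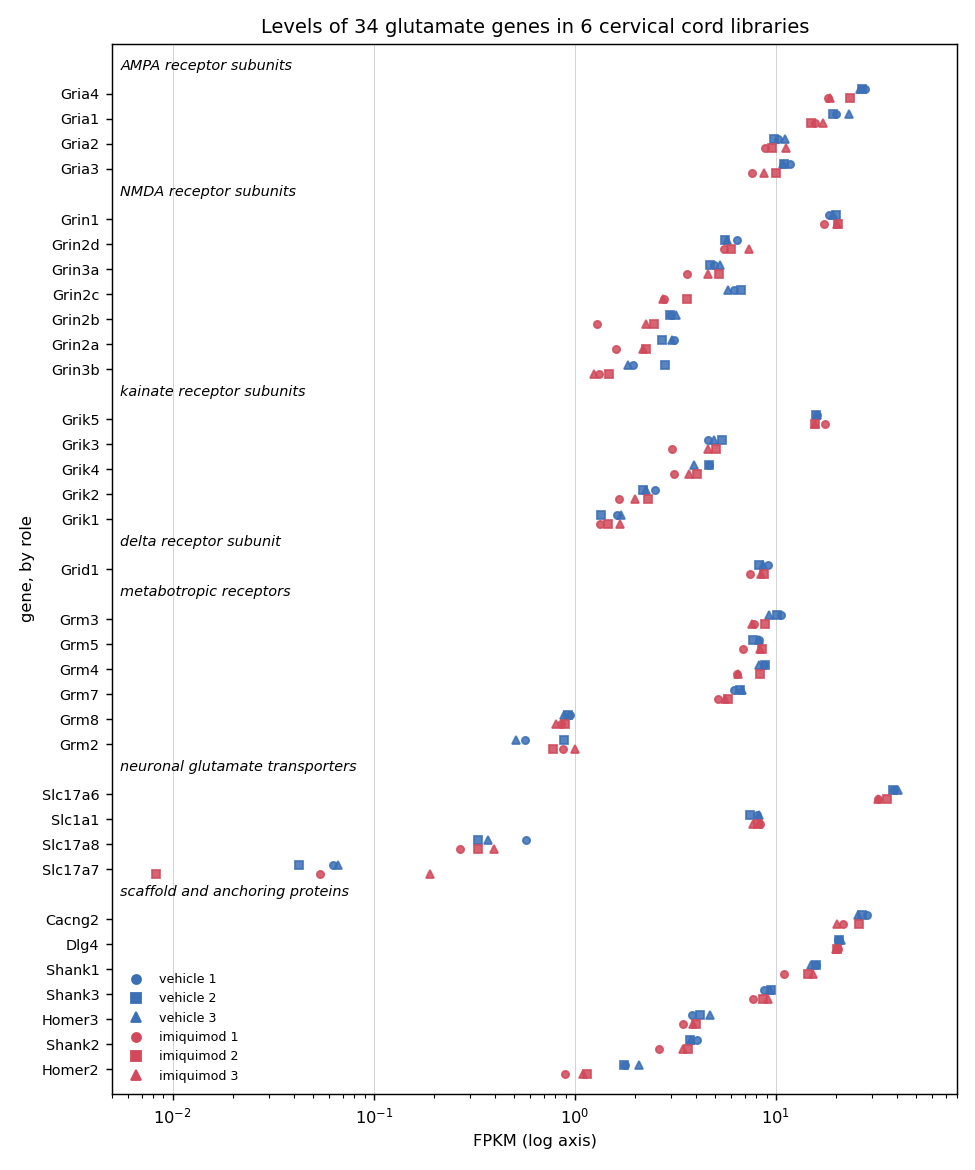
FPKM (log axis) of all 34 glutamate genes, by role, in the 3 vehicle (blue) and 3 imiquimod (red) libraries, with the marker shape giving the replicate. Slc17a6 is highest and Slc17a7 lowest, and the red and blue points of Grin2c, Gria1, Gria4 and Homer2 do not overlap.

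The NMDA receptor needs the obligatory subunit GluN1, encoded by Grin1, together with GluN2 subunits, which set its kinetics and magnesium block. Grin1 stood at 18.4, 19.9 and 19.3 FPKM in vehicle cords and at 17.3, 20.4 and 20.05 FPKM in imiquimod cords. The groups overlapped, and the log2 change was 0.00 ± 0.08 (SE, limma adjusted p = 0.983). Of the 4 GluN2 genes 1 was called. Grin2c (ENSMUSG00000020734, GRCm38 chr11:115249169-115267243) encodes GluN2C, a subunit of low conductance and weak magnesium block found in cerebellar granule cells and in astrocytes of some brain regions. It stood at 6.17, 6.68 and 5.80 FPKM in vehicle and at 2.76, 3.60 and 2.74 FPKM in imiquimod cords. Every imiquimod library was far below every vehicle library. Behind these values were 550 to 585 fragments per vehicle library and 287 to 405 per imiquimod library, although the latter were deeper. The mean dropped by 51.2%, from 6.22 ± 0.443 to 3.03 ± 0.487 FPKM (SD, n = 3 each), a log2 change of -1.02 ± 0.12 (limma adjusted p = 0.00393). The call held in all 13 alternatives, with adjusted p from 8.38e-04 to 0.0217.

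Grin2a and Grin2b encode GluN2A and GluN2B, the subunits of most forebrain NMDA receptors. Grin2a stood at 3.11, 2.71 and 3.05 FPKM in vehicle and at 1.61, 2.27 and 2.18 FPKM in imiquimod cords. The groups did not overlap, but the change of -0.54 ± 0.15 missed the threshold (limma adjusted p = 0.0527). Grin2b stood at 3.01, 2.98 and 3.17 against 1.28, 2.47 and 2.26 FPKM, again without overlap. Imiquimod replicate 1 was far below the others, and the change was -0.63 ± 0.23 (limma adjusted p = 0.113). Grin2d, whose product GluN2D gives slow receptors and is found in spinal interneurons, stood at 6.37, 5.57 and 5.74 against 5.51, 5.97 and 7.35 FPKM. Its groups overlapped (0.08 ± 0.12, limma adjusted p = 0.682). Of the glycine-binding GluN3 genes, Grin3a had 4.96 FPKM in vehicle and 4.48 FPKM in imiquimod cords and a log2 change of -0.16 ± 0.13 (limma adjusted p = 0.474). Grin3b, known from motor neurons, stood at 1.95, 2.81 and 1.83 against 1.32, 1.48 and 1.24 FPKM (-0.65 ± 0.18, limma adjusted p = 0.0562). Its groups did not overlap. Its exons overlap those of Tmem259 on the other strand, which was at 26.2 FPKM in vehicle and 28.6 FPKM in imiquimod cords.

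The make-up of the GluN2 genes was compared as shares of their sum. Grin2c made up 33.1%, 37.2% and 32.6% of the summed FPKM of the 4 GluN2 genes in vehicle cords, and 24.7%, 25.1% and 18.9% in imiquimod cords. Grin2d made up 34.2%, 31.1% and 32.3% against 49.4%, 41.7% and 50.6%. The groups did not overlap for either gene. Grin2d led in each imiquimod cord and also in vehicle replicate 1, and Grin2c led in vehicle replicates 2 and 3, in replicate 3 only narrowly. The mean share of Grin2c differed by -11.4 percentage points and that of Grin2d by 14.7 points (two-sided exact permutation p = 0.1 each, the smallest that 3 against 3 can give, and 0.633 after adjustment over the 19 shares compared). The sum of the 4 genes was 17.8 to 18.7 FPKM in vehicle and 11.2 to 14.5 FPKM in imiquimod cords. A share within a library does not depend on how libraries were scaled. No share can pass a threshold of 0.05 in this design.

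**Figure D3:**
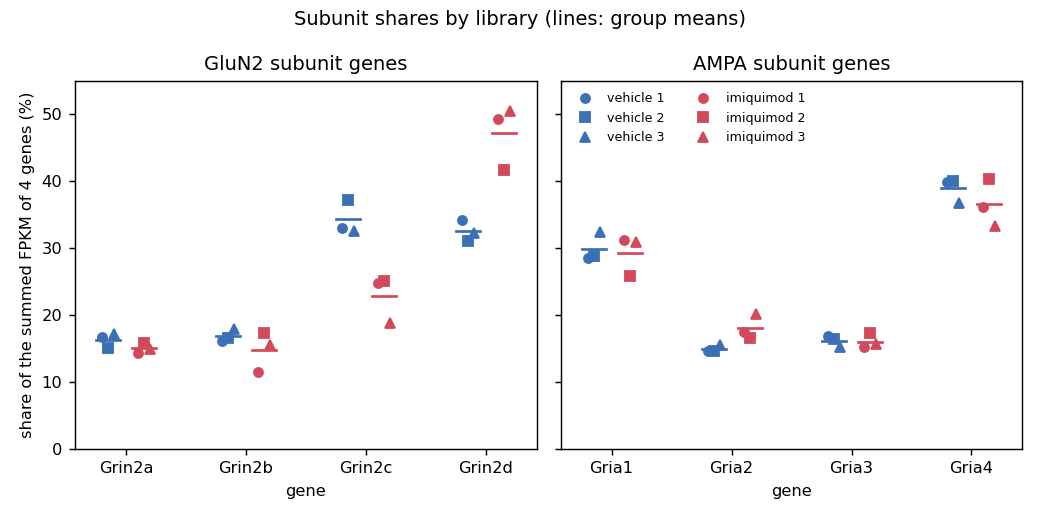
Share (%) of each subunit gene in the summed FPKM of its family, GluN2 at left and AMPA at right, for each of the 6 libraries, with lines at the group means. Grin2c is lower and Grin2d higher in all 3 imiquimod libraries than in all 3 vehicle libraries, and Gria2 has a slightly higher share there.

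AMPA receptors carry most fast excitatory current, and the subunit from Gria2 keeps calcium out of the channel. Gria4 (ENSMUSG00000025892, GRCm38 chr9:4417896-4796234) was the most abundant of the 4 genes, at 27.8, 26.8 and 26.1 FPKM in vehicle and at 18.2, 23.3 and 18.5 FPKM in imiquimod cords. Imiquimod replicate 2 came closest to the vehicle libraries without reaching them. The mean dropped by 25.7% (log2 change -0.44 ± 0.10, limma adjusted p = 0.0351). Gria1 (ENSMUSG00000020524, GRCm38 chr11:57011387-57330244) stood at 19.9, 19.3 and 23.1 against 15.7, 14.9 and 17.2 FPKM. Its groups did not overlap, and the mean dropped by 23.3% (-0.38 ± 0.09, limma adjusted p = 0.0379). The call of Gria1 ended without any 1 library (adjusted p 0.0518 to 0.108), and that of Gria4 ended without any 1 library other than imiquimod replicate 2 (0.0814 to 0.129). With no filter on low values neither was called (0.0665 and 0.0638), and with the replicate block Gria4 was not (0.0627).

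Gria3 stood at 11.7, 10.97 and 10.8 FPKM in vehicle and at 7.64, 9.97 and 8.69 FPKM in imiquimod cords. The groups did not overlap, and the change of -0.35 ± 0.10 missed the threshold (limma adjusted p = 0.0653). Gria2 stood at 10.2, 9.81 and 11.1 against 8.82, 9.56 and 11.2 FPKM. Its groups overlapped (-0.08 ± 0.10, limma adjusted p = 0.649). The share of Gria2 among the 4 AMPA genes was 14.7% to 15.6% in vehicle and 16.6% to 20.2% in imiquimod cords, a difference of 3.11 percentage points (two-sided exact permutation p = 0.1, 0.633 adjusted). The shares of the other 3 genes overlapped between the groups. The sum of the 4 genes was 66.9 to 71.1 FPKM in vehicle and 50.3 to 57.7 FPKM in imiquimod cords. Cacng2 encodes stargazin, the auxiliary protein that brings AMPA receptors to the synapse. It stood at 28.5, 26.7 and 25.6 against 21.6, 25.9 and 20.1 FPKM. Imiquimod replicate 2 reached into the vehicle range (-0.26 ± 0.10, limma adjusted p = 0.136).

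Kainate receptors modulate release and excitability. None of the 5 genes was called, and the groups overlapped in all 5. Grik5, a high-affinity subunit and the most abundant of them, stood at 16.0, 15.8 and 16.0 FPKM in vehicle and at 17.5, 15.7 and 15.7 FPKM in imiquimod cords (0.03 ± 0.06, limma adjusted p = 0.760). Grik1, Grik2, Grik3 and Grik4 had means of 1.56, 2.32, 4.97 and 4.41 FPKM in vehicle and 1.49, 1.99, 4.23 and 3.64 FPKM in imiquimod cords. Their log2 changes lay from -0.28 to -0.06 (limma adjusted p 0.184 to 0.805). Grid1, a delta subunit that acts in synapse adhesion, stood at 9.12, 8.20 and 8.66 against 7.43, 8.76 and 8.40 FPKM (-0.08 ± 0.08, limma adjusted p = 0.561).

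None of the 6 metabotropic receptor genes was called. Grm3, a Gi-coupled receptor also found on astrocytes, was the most abundant, at 10.7, 10.2 and 9.24 FPKM in vehicle and 7.81, 8.84 and 7.62 FPKM in imiquimod cords. Its groups did not overlap (-0.31 ± 0.09, limma adjusted p = 0.0609). Grm7, a presynaptic receptor of low affinity, stood at 6.20, 6.60 and 6.76 against 5.14, 5.79 and 5.60 FPKM, again without overlap (-0.24 ± 0.08, limma adjusted p = 0.0824). Grm4, likewise presynaptic, stood at 8.76, 8.86 and 8.24 against 6.43, 8.29 and 6.45 FPKM, and imiquimod replicate 2 lay within the vehicle range (-0.29 ± 0.11, limma adjusted p = 0.123). Grm5, the postsynaptic Gq-coupled receptor that Homer proteins bind, had 8.04 against 7.94 FPKM and a change of -0.02 ± 0.10 (limma adjusted p = 0.888). Grm2 and Grm8 were under 1.01 FPKM in all libraries, with changes of 0.41 ± 0.24 and -0.10 ± 0.16.

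Among the transporters, Slc17a6 stood at 38.6, 38.4 and 40.6 FPKM in vehicle and at 32.1, 35.7 and 32.2 FPKM in imiquimod cords. The groups did not overlap, and the change of -0.23 ± 0.07 missed the threshold (limma adjusted p = 0.0594). Slc17a6 made up 98.2% to 99.1% of the summed FPKM of the 3 vesicular transporter genes in every library. The other two did not pass the filter on low values and were not tested. Slc17a7 (VGLUT1) had 4 to 7 fragments per vehicle library and 6, 1 and 24 fragments in imiquimod replicates 1, 2 and 3. Slc17a8 (VGLUT3) had 27 to 48 and 26 to 44 fragments, so the groups overlapped in both. Slc1a1, the neuronal uptake transporter, had 7.91 against 8.07 FPKM, with overlapping groups (0.03 ± 0.07, limma adjusted p = 0.817).

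Of the scaffold genes Homer2 was called. Homer proteins link metabotropic receptors to Shank and to calcium stores. Homer2 (ENSMUSG00000025813, GRCm38 chr7:81600481-81707527) stood at 1.77, 1.76 and 2.09 FPKM in vehicle and at 0.891, 1.14 and 1.10 FPKM in imiquimod cords. Every imiquimod library was below every vehicle library, and the mean dropped by 44.2% (log2 change -0.79 ± 0.15, limma adjusted p = 0.0173). The call ended without vehicle replicate 1, 2 or 3 (0.0563 to 0.074) and held without each imiquimod library. Its relative Homer3 had 4.25 against 3.79 FPKM and a change of -0.16 ± 0.10 (limma adjusted p = 0.348), and its exons overlap those of Ddx49.

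Dlg4 encodes PSD-95, which binds the tails of GluN2 subunits and of stargazin. It stood at 20.3, 20.7 and 21.0 FPKM in vehicle and at 20.5, 20.1 and 19.9 FPKM in imiquimod cords. The groups overlapped (-0.04 ± 0.05, limma adjusted p = 0.692). The Shank genes encode the deeper scaffold that joins PSD-95 complexes to Homer and actin, and none was called. They had 15.5, 3.86 and 9.17 FPKM in vehicle and 13.6, 3.25 and 8.50 FPKM in imiquimod cords. Shank1, Shank2 and Shank3 had changes of -0.20 ± 0.12, -0.26 ± 0.13 and -0.11 ± 0.08, with imiquimod replicate 1 the lowest library for each. Shank1 led with 54.3 ± 1.05% of the summed FPKM of the 3 genes in vehicle and 53.5 ± 1.70% in imiquimod cords (SD, n = 3 each).

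The imiquimod libraries differed among themselves in a common order. Imiquimod replicate 2 was the highest of the 3 for 22 of the 32 genes and replicate 1 the lowest for 22, against 32.7% and 33.5% of all genes tested. The median deviation of the 32 genes from the vehicle mean was -0.34, -0.08 and -0.16 on the log2 scale in replicates 1, 2 and 3. Without replicate 2, Gria3, Grin2a, Grm3, Grm4, Slc17a6 and Cacng2 were called as well (limma adjusted p 0.0141 to 0.0412), and Gria1 was not (0.0687). Replicate 2 also had the lowest level of lymphocyte and monocyte markers of the 3. The 8 markers summed to 20.7 FPKM there, against 50.3 and 57.0 FPKM in replicates 1 and 3 and 1.24 to 4.38 FPKM in vehicle cords, with none at 0 in all libraries. The part of these cells in the glutamate results was not tested.

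Other cell markers moved beside the set. The 14 neuron markers summed to 2238 to 2345 FPKM in vehicle and 1681 to 2104 FPKM in imiquimod cords, with 11 of 14 below 0. Imiquimod replicate 3 was the lowest library for that sum. The 5 red blood cell markers summed to 124.6 to 490.1 against 44.6 to 154.8 FPKM, with none called. Of the 7 cholinergic and motor neuron markers tested 4 were called lower, with a median of -0.62, and the 8 on the list summed to 104 to 112 FPKM in vehicle and 53.5 to 89.7 FPKM in imiquimod cords. Imiquimod replicate 2 was the highest of the 3 there too. The 5 inhibitory neuron markers had a median of 0.04, with 1 called higher and none lower, but did not move together. They summed to 182.5 to 195.0 FPKM in vehicle and 161.9 to 189.1 FPKM in imiquimod cords. Every vehicle library lay above every imiquimod library for 1 of them, Slc6a5 (-0.45 ± 0.15, limma adjusted p = 0.085). It was the other way for 2. The 10 astrocyte markers went both ways, 2 lower and 1 higher, and summed to 1845 to 1947 against 1524 to 1812 FPKM. The 7 markers on the oligodendrocyte precursor list summed to 44.3 to 47.5 against 31.0 to 34.5 FPKM, but did not move together. The 3 called lower were Gpr17 (-0.94), Enpp6 (-0.56) and Neu4 (-0.40). Pdgfra (0.07), Cspg4 (-0.01) and Vcan (-0.01) hardly changed, and Bmp4 (-0.60) was not called. The 8 markers of mature oligodendrocytes summed to 8025 to 8611 FPKM in vehicle and 5467 to 7027 FPKM in imiquimod cords, with 7 of 8 below 0. The 7 microglia markers summed to 94.4 to 105.7 against 117.6 to 152.0 FPKM, with 2 called higher and 1 lower. The part of these cells in the changes of Grin2c, Gria1, Gria4 and Homer2 was not tested.

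**Figure D4:**
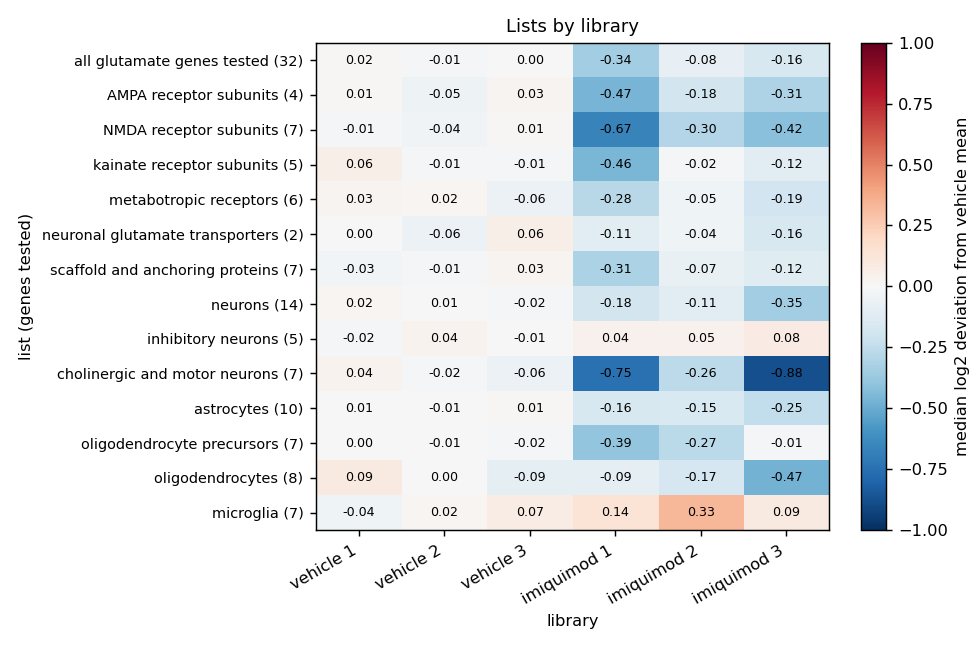
Median log2 deviation from the vehicle mean in each of the 6 libraries for the role groups of the glutamate genes and for marker lists, with the number of genes tested in parentheses; blue is lower and red higher. The glutamate rows are lowest in imiquimod replicate 1 in all rows but that of the transporters, and the cholinergic and motor neuron row is lowest in imiquimod replicate 3. Not drawn are the delta subunit and the sensory ganglion, lymphocyte and monocyte, Schwann cell, skeletal muscle and red blood cell lists.

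Of 58 other genes of glutamate transmission, 57 were tested, 2 rose and 4 fell, with a median log2 change of -0.06. None of 23 other postsynaptic density genes was called, and 1 of 20 genes of auxiliary subunits and receptor clustering was. The 1 was Nptx2, a secreted pentraxin that clusters AMPA receptors and responds to activity. It stood at 2.61, 3.70 and 3.97 FPKM in vehicle and at 9.31, 5.82 and 8.86 FPKM in imiquimod cords, and so went against the direction of the receptor genes (1.19 ± 0.22, limma adjusted p = 0.0165). It was no longer called when vehicle replicate 1 or imiquimod replicate 1 or 3 was left out (0.0524 to 0.0581).

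Of 12 genes of glutamate uptake and metabolism 4 fell and 1 rose. Slc1a2, the main astrocyte glutamate transporter, stood at 156 to 159 FPKM in vehicle and at 84.8 to 112 FPKM in imiquimod cords, without overlap (-0.70 ± 0.10, limma adjusted p = 0.00775). Its call held in all 13 alternatives. Glud1, glutamate dehydrogenase, fell as well, with 104 to 105 FPKM in vehicle and 70.8 to 83.5 FPKM in imiquimod cords (-0.42 ± 0.08, limma adjusted p = 0.0154), though not without any 1 vehicle library (0.0648 to 0.0713). So did the glutamine transporter gene Slc38a3, at 17.6 to 18.7 against 12.9 to 15.7 FPKM (-0.40 ± 0.09, limma adjusted p = 0.0317), whose call ended without any 1 library except imiquimod replicate 2 (0.0747 to 0.12), with no filter on low values (0.0554) and with the replicate block (0.0564). Got2, the mitochondrial aspartate aminotransferase, rose, with 42.5 to 43.4 FPKM in vehicle and 48.3 to 53.1 FPKM in imiquimod cords (0.26 ± 0.06, limma adjusted p = 0.0337), but its call ended without any 1 library except imiquimod replicate 3 (0.0556 to 0.139), with the length and GC trend removed (0.21), with no filter on low values (0.0548) and with the replicate block (0.089). Glul, which makes glutamine in astrocytes, and Slc1a3, the other astrocyte transporter, had changes of -0.04 ± 0.08 and 0.08 ± 0.09 and were not called.

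**Figure D5:**
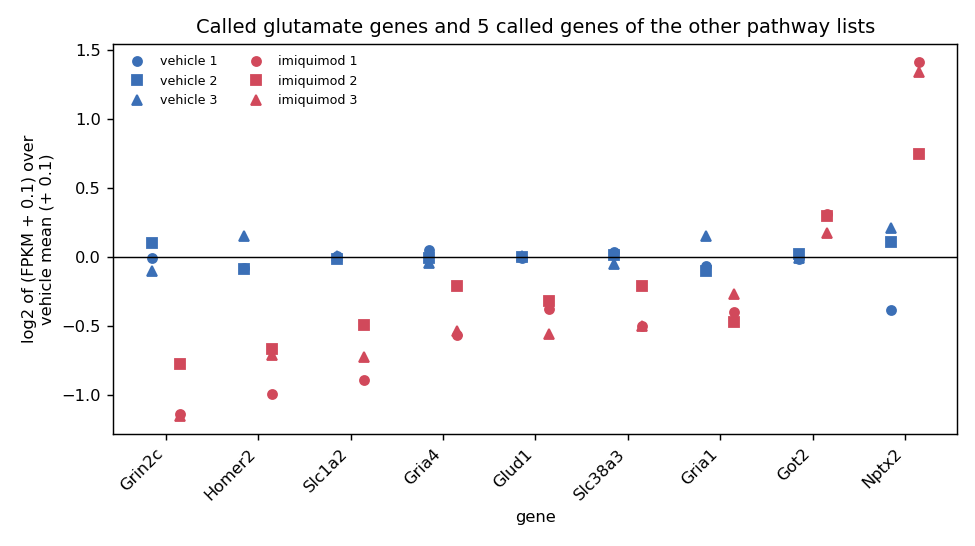
Log2 of (FPKM + 0.1) over the vehicle mean (+ 0.1) in each library for the 4 called glutamate genes and 5 called genes of the other pathway lists, ordered by change. In the first 7 genes all 3 imiquimod libraries lie below the vehicle libraries, and in Got2 and Nptx2 they lie above.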

How the data were processed

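The authors deposited 1 value per gene and library for 54532 Ensembl genes. The file headers name only the library, and the deposited values were taken as FPKM. Value times exon length gave whole multiples of 1 step per library, which any unit divided by exon length would do. The submitters' processing notes list, without roles, the build mm10 and the tools DESeq2 1.16.1, HISAT2 2.0.5 and featureCounts 1.5.0-p3. For annotation release and strand setting nothing is stated in the labels. Symbols came from a names table (54409 matched), and lengths, GC content and positions from GENCODE M21 (54495 matched). Fragments were recovered from FPKM times exon length, divided by the value of 1 fragment in that library, and 97.4% to 97.6% of those under 1000 were whole within 0.05. The main test was limma-trend (limma 3.58.1, R 4.3.3) applied to log2(FPKM + 0.1) of all genes with a group mean of at least 0.5 FPKM. Log2 changes understate those of low genes. Means, shares and exact permutation tests used SciPy 1.17.1, NumPy 2.4.6 and pandas 2.3.3 in Python 3.11.15, with plots by matplotlib 3.10.9. The main test was also run on 5 simulated sets of 16503 genes with 200 changed. It recovered 91.2% at a 2-fold and 98% at a 4-fold change, and 5.49% of calls were false. The changed genes were drawn only from those above a minimum of fragments, and all genes shared 1 dispersion. Changes smaller than 2-fold, as in most of the glutamate genes, were not simulated. Voom weighted the imiquimod libraries at 0.48 to 0.65 and the vehicle libraries at 1.62 to 1.80, a lower weight meaning a noisier library. Recovery and false calls between groups of such unequal noise were not tested. Members and lists were chosen with earlier results of these data known. Values of every library are given for members that were called in the main test or in an alternative and for the most abundant of each role; the called genes of other pathway lists are named, up to 4 per list and direction, except some that are counted but not reported by name here. The alternatives were a pseudocount of 1, no filter or a filter over all 6 libraries, median-of-ratios scaling, voom with quality weights on recovered fragments, removal of length and GC trends, a replicate block, and leaving out each library. Median-of-ratios scaling (factors 0.9994 to 1.0105) was close to a repeat of the main fit, because the FPKM already followed such factors.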

Additional observations from a re-analysis of the deposited data

How the results depend on the processing

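Of the 4 lower glutamate genes, only Grin2c was called in all 13 alternatives, and no called glutamate gene changed direction in any of them. The count of called glutamate genes was 2 with no filter on low values (Grin2c and Homer2), 8 with voom and sample quality weights and 9 with the length and GC trend removed, all lower. Lower calls over all genes moved too. They were 508 of 31740, 1185 of 16503 and 1571 of 16493 in these settings, against 882 of 16513 in the main fit. Leaving out 1 library gave 1 to 9 glutamate genes, and 187 to 1296 lower calls over all genes. The cause was not tested. Over all genes the 2326 calls moved to between 847 and 2986 when 1 library was left out. They fell to 847, 1022 and 1010 without vehicle replicates 1, 2 and 3 and to 1260 without imiquimod replicate 3, and were 1552 without imiquimod replicate 1. Higher genes made up 62.1% of all calls, and 44.7% with the length and GC trend removed. Of 19 subunit shares 3 had groups apart, and 3 to 11 when 1 library was left out, the most without imiquimod replicate 2 and 5 without vehicle replicate 3. Groups apart has a two-sided exact permutation p of 0.1 for each share, so a few of 19 can arise from the order of libraries alone. With a library left out this arises more easily. Shares within a family have a fixed sum and are not independent. With the replicate number as a block, 1330 genes were called, and 3 glutamate genes (Gria4 was not, adjusted p = 0.0627). Whether the numbers pair the mice is not stated in the labels. Deviations of same-numbered libraries correlated at 0.0186, -0.097 and -0.0331, and no library correlated best with its own number. With 3 libraries per group, centred on their own mean, this cannot exclude a pairing. Depth limits Slc17a7, with 1 to 24 fragments per library.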
